A study of Mus musculus with 3 samples.

Results

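The genes described here are 10 regulators of cardiac and lateral plate mesoderm, read in the germ layers of the gastrulating mouse embryo. They were chosen by name, with earlier results of these data known: Hand1, Hand2, Tbx20, Tbx5, Nkx2-5, Isl1, Mef2c, Smarcd3, Foxf1 and Wnt2. On the Affymetrix mouse genome array they had 22 probe sets, of 34945 probe sets that carry a single gene symbol, and they made up 10 of 18193 named genes. The embryos were of the ICR strain at E7.5, with no mutation or treatment in any sample. Mesoderm, endoderm and epiblast were separated from the embryonic region after enzyme digestion and 1 array was hybridised per layer, so every layer has n = 1 and no test between layers could be made. The study treated the epiblast sample as neuroectoderm together with primitive streak. Each sample was bulk RNA, in which fewer cells of a type and less RNA per cell cannot be told apart.

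The lateral plate is the part of the mesoderm that leaves the primitive streak early and spreads to the sides and front of the embryo, where its splanchnic sheet forms the heart. Its cells are first marked by Mesp1, then come under the influence of BMP, FGF and WNT signals, and then switch on a set of transcription factors. Hand1 and Hand2 are basic helix-loop-helix factors, Tbx5 and Tbx20 are T-box factors, Nkx2-5 and Isl1 are homeodomain factors, Mef2c is a MADS-box factor and Foxf1 is a forkhead factor. Smarcd3 (BAF60c) is not a DNA-binding factor of that kind but a subunit of the BAF chromatin remodelling complex that works with Tbx5, Nkx2-5 and GATA factors. Wnt2 is a secreted ligand of the WNT pathway, expressed in the early cardiac mesoderm and allantois. Foxf1 was one of the genes with which the study checked its dissection by quantitative PCR.

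Of the 10 genes, 7 were at least 2-fold brighter in mesoderm than in epiblast, 6 were at least 2-fold brighter in mesoderm than in endoderm, and none was 2-fold brighter in either other layer than in mesoderm. The 6 genes above both other layers were Smarcd3, Tbx20, Hand2, Wnt2, Foxf1 and Mef2c. Isl1 was graded, with mesoderm first, endoderm next and epiblast last. The 2 probe sets of Hand1 disagreed, and Tbx5 and Nkx2-5 stayed near or below the floor in all 3 layers. The floor, an intensity of 80.6, is the middle of the deposited values of all arrays. Values under it were raised to it before a log2 difference was taken, and a fold against such a value is given as "at least". Among all genes above the floor in either layer, 3.01% were at least 2-fold higher in mesoderm than in epiblast and 2.54% were lower. Against endoderm 3.28% were higher in mesoderm and 10.4% were lower, and 1.3% of genes lay 2-fold above both layers. These shares are background and not a test, since the members were not chosen independently of these data.

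The sequence directly upstream of the start site is shown for 5 members brighter in mesoderm, to set the short motifs read by factors of the same network beside the expression values. RefSeq promoters (build GRCm38.p6) were found for 7 of the 10 genes, with 9 start sites in all, since Mef2c has 3. Each line gives the 250 bases before the start, 5′ to 3′ on the strand of the gene, and capitals mark matches on either strand to CANNTG (the E-box, read by helix-loop-helix factors such as Hand1 and Hand2) or to AGATAA or TGATAA (sites read by GATA factors).
Hand2 chr8:57320733-57320982 (+): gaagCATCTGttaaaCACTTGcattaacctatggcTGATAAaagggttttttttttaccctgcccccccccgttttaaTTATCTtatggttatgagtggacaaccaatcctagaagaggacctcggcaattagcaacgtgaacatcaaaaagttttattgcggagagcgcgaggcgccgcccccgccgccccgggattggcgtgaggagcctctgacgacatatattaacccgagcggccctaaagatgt
Smarcd3 chr5:24602003-24602252 (-): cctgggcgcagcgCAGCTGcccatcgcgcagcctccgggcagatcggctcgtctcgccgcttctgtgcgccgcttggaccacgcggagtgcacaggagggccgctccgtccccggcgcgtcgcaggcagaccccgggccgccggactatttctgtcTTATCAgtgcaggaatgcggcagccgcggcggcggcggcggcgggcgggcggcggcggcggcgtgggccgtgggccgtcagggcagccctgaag
Tbx20 chr9:24774304-24774553 (-): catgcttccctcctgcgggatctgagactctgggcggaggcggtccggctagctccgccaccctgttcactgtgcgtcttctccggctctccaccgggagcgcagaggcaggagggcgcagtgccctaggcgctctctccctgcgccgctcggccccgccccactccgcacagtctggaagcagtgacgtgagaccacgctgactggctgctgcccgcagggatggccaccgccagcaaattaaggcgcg
Wnt2 chr6:18030446-18030695 (-): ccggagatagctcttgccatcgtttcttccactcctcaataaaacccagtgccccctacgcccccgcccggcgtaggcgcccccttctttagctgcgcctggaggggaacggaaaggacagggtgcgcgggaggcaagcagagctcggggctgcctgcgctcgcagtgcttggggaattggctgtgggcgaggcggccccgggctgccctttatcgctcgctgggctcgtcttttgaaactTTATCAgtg
Isl1 chr13:116309689-116309938 (-): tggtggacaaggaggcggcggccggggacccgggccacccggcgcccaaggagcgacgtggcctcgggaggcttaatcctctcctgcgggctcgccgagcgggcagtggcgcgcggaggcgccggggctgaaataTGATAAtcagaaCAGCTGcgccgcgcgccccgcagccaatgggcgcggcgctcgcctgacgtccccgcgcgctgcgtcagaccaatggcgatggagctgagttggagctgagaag
Hand2 had 2 E-boxes, 1 match to TGATAA and 1 to AGATAA. Smarcd3 and Isl1 each had 1 E-box and 1 match to TGATAA, Wnt2 had 1 match to TGATAA and Tbx20 had no match. TGATAA stood in 4 of the 9 promoters of the 7 genes and in 7.94% of 32851 mouse promoters of the same length, while AGATAA stood in 1 of 9 and in 9.99%. The E-box, which is short and loosely defined, stood in 6 of 9 and in 66.2% of all promoters. In none of the 9 was there a match on either strand to GGTGTGA (T-box), CACTTGA or CACTTAA (NK2), TGTTTAC (forkhead), CTAAAAATA (MEF2) or CTTTGAT (TCF/LEF), which stood in 3.33%, 2.68%, 2.1%, 3.17%, 0.469% and 3.21% of all promoters. The TATA box TATAAA was matched in 2 of the 9, both starts of Mef2c, and in 12.4% of all promoters. The Smarcd3, Isl1, Tbx20 and Wnt2 promoters were rich in G and C (76%, 71.2%, 68.8% and 63.6%, against a median of 52.4% over all promoters). Hand2 and Nkx2-5 lay just below that median, both at 49.2%. The 3 Mef2c starts were also below it, at 33.6%, 44.8% and 49.6%. A match is a run of letters only, and no binding was measured.

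Hand2, which is needed for the growth of the right ventricle, was carried by a single bright probe set. Probe set 1436041_at read 577 in mesoderm, 22.9 in endoderm and 23.4 in epiblast. Mesoderm was at least 7.15-fold above each of the others, since both lay far below the floor. Within its own array this signal ranked at the 84.7th percentile in mesoderm, the 11.7th in endoderm and the 11.5th in epiblast. The other 2 Hand2 probe sets were below the floor in every layer, 1422221_at at 75.6 in mesoderm, 41.9 in endoderm and 42.7 in epiblast, and 1443854_at at 35.8, 19.9 and 27.1 in the same order. Their layers therefore have no order.

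Hand1, the relative of Hand2 that is active in lateral plate, extra-embryonic mesoderm and trophoblast, could not be placed from this array. Probe set 1448750_at, brighter on average and therefore the one that stands for the gene, read 323 in mesoderm, 248 in endoderm and 325 in epiblast, all within 2-fold. Probe set 1417525_at read 477 in mesoderm, 80.5 in endoderm and 157 in epiblast. By this second probe set mesoderm was 3.03-fold above epiblast and at least 5.91-fold above endoderm. Their differences were 1.61 log2 units apart for mesoderm against epiblast, a gap reached by 1.5% of the 5267 genes that had more than 1 probe set above the floor in that pair. For mesoderm against endoderm they were 2.18 apart, reached by 1.71% of 5369 genes. Which transcript each probe set detects was not tested.

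**Figure D1:**
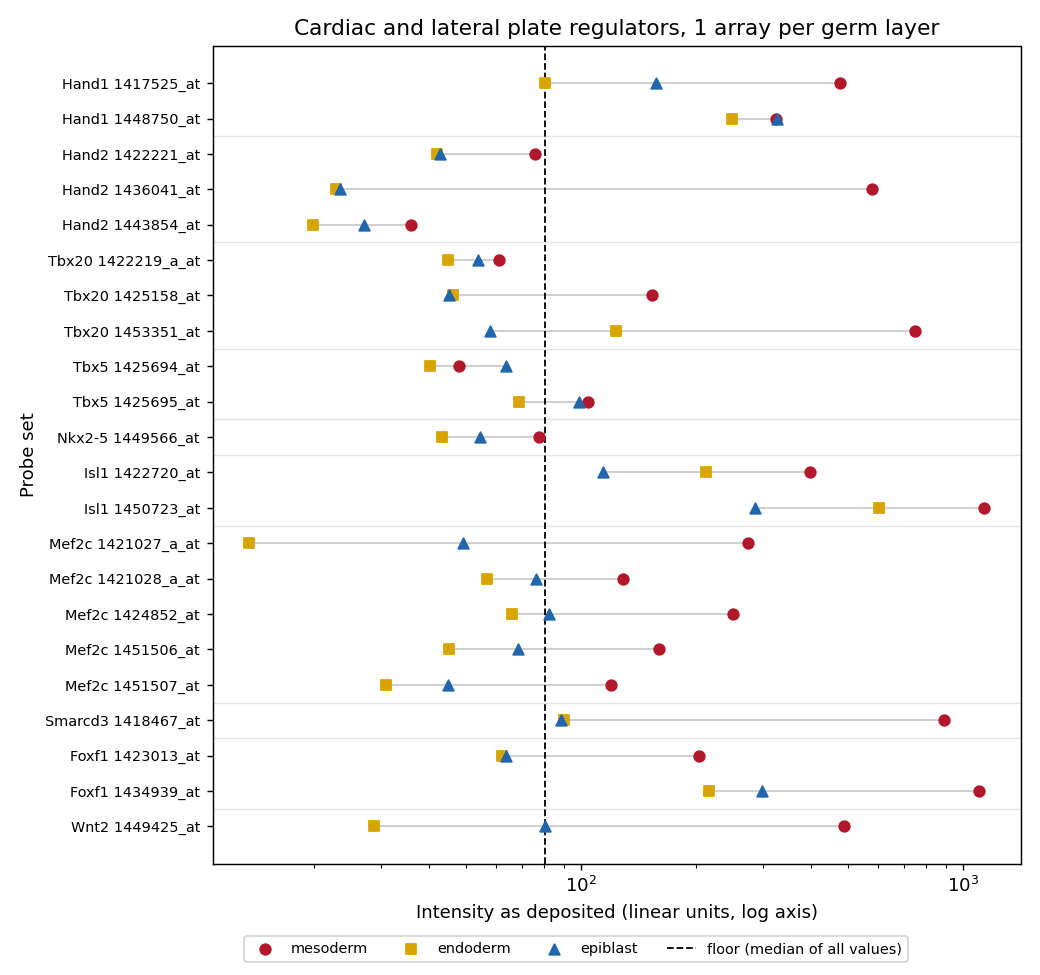
Intensity of each of the 22 probe sets (horizontal log axis, linear intensity units as deposited) in mesoderm (circles), endoderm (squares) and epiblast (triangles), 1 array each, with the floor of 80.6 as a dashed line. The 5 probe sets that lie left of the line in all layers have no order, and in the others mesoderm is the rightmost point, with the exception of Hand1 1448750_at.

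Among the T-box factors, Tbx20, a factor of the cardiac crescent and heart tube, showed one of the widest separations. Probe set 1453351_at read 749 in mesoderm, 124 in endoderm and 57.8 in epiblast, so that mesoderm was 6.05-fold above endoderm and at least 9.29-fold above epiblast. Probe set 1425158_at read 154 in mesoderm, 46.3 in endoderm and 45.1 in epiblast, at least 1.91-fold higher in mesoderm. Probe set 1422219_a_at was below the floor everywhere, at 60.95 in mesoderm, 44.8 in endoderm and 53.9 in epiblast. Mesoderm was the brightest layer for both probe sets above the floor, and the call rests on the brighter of them.

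Tbx5, which patterns the left ventricle and atria and is the partner of Smarcd3 and Nkx2-5, was not separated between layers. Probe set 1425695_at read 105 in mesoderm, 68.8 in endoderm and 98.7 in epiblast. Probe set 1425694_at read 48.0, 40.2 and 63.6 in the same order, all below the floor. The first ranked at the 57.4th percentile of the mesoderm array, the 45.5th of the endoderm array and the 55.2nd of the epiblast array.

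Nkx2-5, the homeodomain factor most often used to mark cardiac progenitors, did not pass the floor in any layer. Its only probe set, 1449566_at, read 77.8 in mesoderm, 43.2 in endoderm and 54.5 in epiblast. The mesoderm value lay just under the floor, at the 49.2nd percentile of its array, and neither an order nor a fold is given. The floor is the middle of all deposited values and not a measured detection limit, so whether the layers differ below it was not tested.

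Isl1, a LIM homeodomain factor of the second heart field and of anterior endoderm, ranked at the 91.4th percentile of its array in mesoderm, the 83.3rd in endoderm and the 75.9th in epiblast. Probe set 1450723_at read 1132 in mesoderm, 603 in endoderm and 286 in epiblast, and 1422720_at read 396, 213 and 114 in the same order. Both gave the same order of layers. Mesoderm was 3.96-fold and 3.48-fold above epiblast by the 2 probe sets, and 1.88-fold and 1.86-fold above endoderm, short of the 2-fold limit. Endoderm was 2.11-fold above epiblast by the first and 1.87-fold by the second. In endoderm against epiblast Isl1 was the only member 2-fold higher, a comparison in which 11.5% of all genes above the floor were higher and 3.21% were lower, and no member was lower. This Isl1 call, 1.08 log2 units, was lost with quantile scaling (0.81), cyclic loess (0.96) and the mean over both probe sets (0.99). The difference between mesoderm and endoderm, 0.91 log2 units, passed 2-fold with quantile scaling (1.15) and just reached it with cyclic loess.

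Mef2c, a MADS-box factor of the second heart field that also acts in endothelium, had 5 probe sets, and mesoderm was the brightest layer in all 5. The one that stands for the gene, 1424852_at, read 249.6 in mesoderm, 66.2 in endoderm and 82.3 in epiblast, 3.03-fold above epiblast and at least 3.1-fold above endoderm. Probe set 1421027_a_at read 273 in mesoderm, 13.6 in endoderm and 49.0 in epiblast, at least 3.38-fold above both. The remaining 3 lay between 119.8 and 159.98 in mesoderm and under the floor elsewhere, at least 1.49-fold to at least 1.98-fold higher in mesoderm. Of the 5 probe sets, 2 passed the 2-fold limit.

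Of the members with values above the floor on both sides of a comparison, Smarcd3 had the largest folds of mesoderm over endoderm and over epiblast. Its 1 probe set, 1418467_at, read 889 in mesoderm, 90.05 in endoderm and 88.6 in epiblast. All 3 values were above the floor, so the folds are measured on both sides: 9.88 over endoderm and 10.03 over epiblast. Endoderm and epiblast differed by 1.02-fold. Its rank was the 89.3rd percentile in mesoderm, the 53.2nd in endoderm and the 52.2nd in epiblast.

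The other SWI/SNF subunits did not follow Smarcd3. Smarcd1, which occupies the same position in the complex, read 2052 in mesoderm, 1896 in endoderm and 2269.9 in epiblast, and Smarcd2 read 1278, 937 and 993 in the same order. Of 25 SWI/SNF subunits named on the array, Smarcd3 not among them, 24 were above the floor, none differed 2-fold between mesoderm and epiblast, and 1 differed between mesoderm and endoderm. That gene was Smarca2 (BRM, a catalytic subunit), at 322 in mesoderm, 115 in endoderm and 304 in epiblast. Of its 2 probe sets above the floor, 1 passed the limit. Among all genes above the floor in the pair, 3.01% were 2-fold higher and 2.54% lower in mesoderm than in epiblast. Against endoderm the shares were 3.28% and 10.4%. Most genes of any kind were thus within 2-fold, and few calls are not particular to this complex.

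Foxf1, which specifies splanchnic mesoderm and its vessels, was at least 2-fold higher in mesoderm by both probe sets. Probe set 1434939_at read 1098 in mesoderm, 216 in endoderm and 298 in epiblast, a ratio of 5.09 over endoderm and 3.69 over epiblast. Probe set 1423013_at read 203 in mesoderm, 62.05 in endoderm and 63.7 in epiblast, at least 2.52-fold above each. Endoderm and epiblast were within 2-fold of each other by the first probe set and both below the floor by the second. Its paralog Foxf2 was barely above the floor in mesoderm at 82.8 and below it in endoderm (45.1) and epiblast (38.2). Fendrr, the non-coding RNA transcribed next to Foxf1, was looked at after the members' values were seen. It read 100.3 in mesoderm, 63.8 in endoderm and 80.7 in epiblast, all within 2-fold.

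Wnt2, the only ligand among the members, read 488 in mesoderm, 28.8 in endoderm and 80.4 in epiblast by its 1 probe set, 1449425_at. Mesoderm was at least 6.06-fold above both. The epiblast value lay just under the floor and the endoderm value at the 16.9th percentile of its array, and since both are below the floor they have no order. Of 19 WNT genes, Wnt2 and Wnt5a (1274 in mesoderm, 357 in endoderm and 375 in epiblast) were 2-fold higher in mesoderm than in both others. Wnt3a and Wnt8a, ligands of the primitive streak, were lower in mesoderm than in epiblast, Wnt3a at 108 in mesoderm, 94.4 in endoderm and 302 in epiblast and Wnt8a at 91.1, 98.5 and 289 in the same order.

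**Figure D2:**
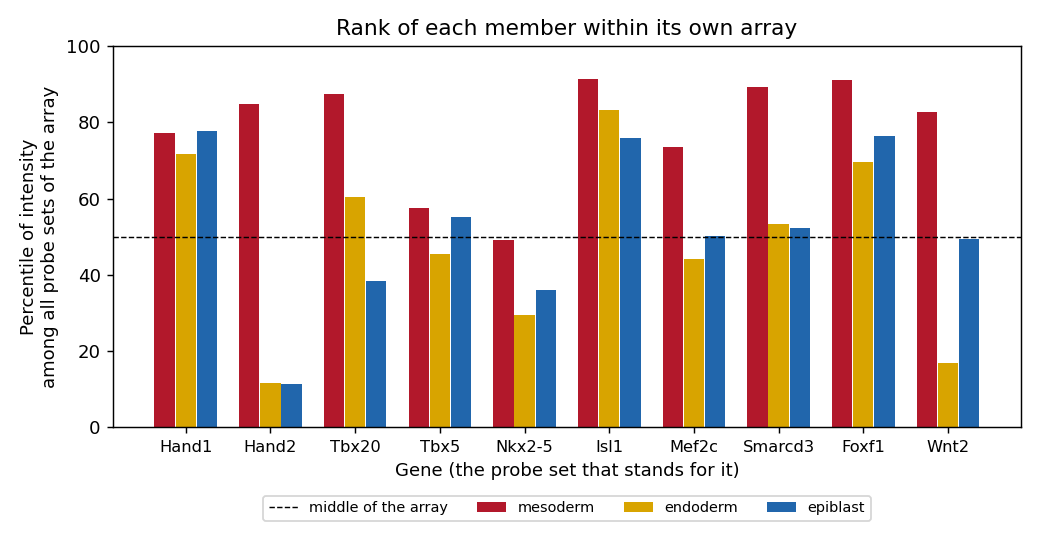
Percentile of intensity among all probe sets of the same array (vertical axis, 0 to 100) for the probe set that stands for each of the 10 genes, in mesoderm, endoderm and epiblast, with the middle of the array dashed. Hand2 ranks at 84.7 in mesoderm against 11.7 in endoderm and 11.5 in epiblast, whereas Hand1 ranks between 71.5 and 77.8 in all layers.

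With the value at the floor counted where a gene was below it, the median difference over all 10 genes was 1.93 log2 units for mesoderm against epiblast, 1.99 for mesoderm against endoderm and 0 for endoderm against epiblast. Over all genes above the floor in the pair the medians were -0.02, -0.07 and 0.05. Taken probe set by probe set, 11 of 22 were at least 2-fold higher in mesoderm than in epiblast, beside 2.64% of all probe sets above the floor, and 9 of 22 were higher than in endoderm, beside 3.03%. Members such as Hand2 and Wnt2 were above the floor only in mesoderm, so that they could enter these counts in 1 direction only. In a count added after the data were seen, where a gene counted if any of its probe sets was 2-fold higher, 8 of 10 were higher in mesoderm than in epiblast (3.33% of all genes above the floor in the pair) and 7 of 10 than in endoderm (3.72% of such genes), the gene added each time being Hand1.

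With 1 array per layer the only measure of error was how far probe sets of 1 gene disagreed. The pooled SD of the log2 difference within genes was 0.26 for mesoderm against epiblast (5267 genes), 0.39 for mesoderm against endoderm (5369 genes) and 0.4 for endoderm against epiblast (5412 genes). It covers differences between probe sets and holds nothing of the variation between embryos or dissections. Of the genes that had more than 1 probe set above the floor, with at least 1 of them 2-fold higher in mesoderm than in epiblast, 151 of 221 (68.3%) had another that was not. Against endoderm this was 181 of 259 (69.9%). Among the members with more than 1 usable probe set, Foxf1 was called by all of them in both comparisons and Isl1 by all of them against epiblast, while Hand1, Mef2c and Tbx20 were called by some.

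**Figure D3:**
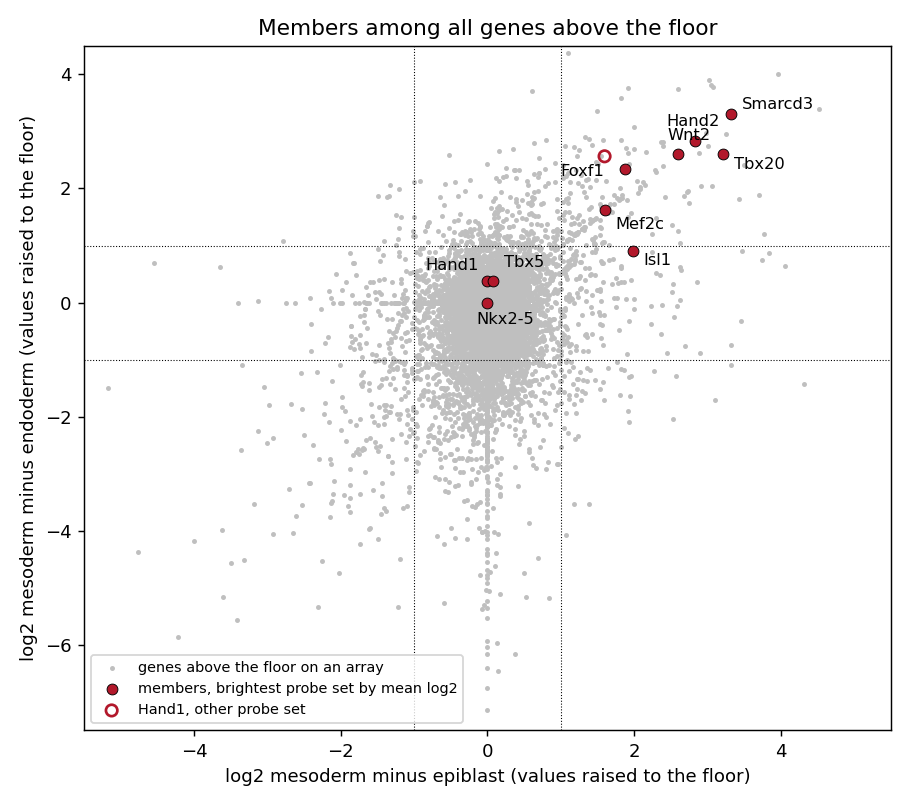
Log2 difference of mesoderm minus epiblast (horizontal) and mesoderm minus endoderm (vertical), values raised to the floor, for all genes above the floor on an array (grey) and the 10 members (red), with dotted lines at 2-fold. The 6 members named above lie beyond 2-fold on both axes, Isl1 on the horizontal axis alone, and the open circle is the Hand1 probe set 1417525_at.

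Genes that act before or beside the members were read from lists of 17 inducers and 5 GATA factors and cofactors. Of the inducers 7 were higher in mesoderm than in epiblast and 2 were lower, and against endoderm 7 were higher and 1 was lower. Mesp1, the first marker of cardiac precursors, read 2057 in mesoderm, 172 in endoderm and 579 in epiblast. Bmp4, a ligand that induces Hand and Nkx2-5 genes, read 1552 in mesoderm, 113 in endoderm and 184 in epiblast, and the haemato-endothelial factor Etv2 read 1231, 87.7 and 148 in the same order. Each of these genes was highest in mesoderm. Epiblast was 3.36-fold above endoderm for Mesp1, but within 2-fold of it for Bmp4 (1.62) and Etv2 (1.69). Bmp2, by contrast, was brightest in endoderm at 1727, with 810 in mesoderm and 49.7 in epiblast. Mixl1, a primitive streak factor, read 234 in mesoderm, 77.8 in endoderm and 554 in epiblast, and with Wnt3a it was lower in mesoderm than in epiblast.

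Of the GATA factors, which bind next to Nkx2-5 and Tbx5 at cardiac genes, Gata4 and Gata6 were 2-fold above epiblast in both mesoderm and endoderm. This held for 2 of 2 Gata6 probe sets above the floor, but for 1 of 2 of Gata4. The same was true of the cofactor Zfpm1, also by 1 of 2. Gata6 read 1079 in mesoderm, 645 in endoderm and 63.9 in epiblast, and Gata4 read 274, 562 and 40.4 in the same order. Zfpm1 (FOG1, a GATA cofactor) read 695 in mesoderm, 449.7 in endoderm and 112 in epiblast. Of the 5 genes 3 were higher in mesoderm than in epiblast, none was higher than in endoderm and Gata4 was 2.05-fold lower in mesoderm than in endoderm. Gata5 read 146 in mesoderm, 85.9 in endoderm and 91.4 in epiblast, within 2-fold. Zfpm2 was below the floor in every layer, at 61.3, 51.3 and 62.2 in the same order. The order of Isl1 was mesoderm, endoderm, epiblast, as for Gata6 and Zfpm1, with mesoderm and endoderm within 2-fold of each other for each.

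Of 33 further regulators of cardiac progenitors, 9 were higher in mesoderm than in epiblast and 1 was lower, and 11 were higher than in endoderm and 4 were lower. Those above the floor in the pair numbered 29 against epiblast and 28 against endoderm. Among all such genes 3.01% were higher and 2.54% lower against epiblast, and 3.28% and 10.4% against endoderm. The 4 lower of 28 thus lay near the share of all genes. With values raised to the floor, the widest ranges over the 3 layers were those of Foxc2 (2371 in mesoderm, 226 in endoderm, 103 in epiblast), a forkhead factor of head and paraxial mesoderm, and of Hoxb1 (2247, 171 and 1470.4 in the same order), a marker of the posterior second heart field that was also bright in epiblast. Twist1 read 1528 in mesoderm, 413 in endoderm and 117 in epiblast, and Meis1 read 914, 172 and 80.2. The genes that went the other way were Hopx (131 in mesoderm, 712 in endoderm, 378 in epiblast), a cofactor of cardiac differentiation, and Tbx3 (656, 1489.8 and 248), Eya1 (108, 377 and 73.5) and Mef2d (341, 715 and 231), all 4 lower in mesoderm than in endoderm. Hopx was also the one gene lower in mesoderm than in epiblast. Probe sets did not all pass the limit. Against endoderm, Mef2d was lower by 1 of 3 above the floor and Tbx3 by 2 of 3. Meis1 was higher in mesoderm than in either other layer by 1 of 3. The lists are not separate sets of genes: Foxc1 and Foxc2 also stand among the paraxial markers, Etv2 among the haemato-endothelial ones, and Tcf21 in the lateral plate list.

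Several paralogs of the members did not share their pattern. Mef2a read 400.02 in mesoderm, 494 in endoderm and 265 in epiblast, and it was within 2-fold in mesoderm against either layer. Isl2 (126 in mesoderm, 100.2 in endoderm, 171 in epiblast) and Nkx2-6 (177, 187 and 181 in the same order) did not separate the layers. In the HAND and TWIST group of helix-loop-helix factors, 4 of 8 were higher in mesoderm than in both others, namely Hand2, Twist1, Tcf15 and Tcf21. In the T-box family 2 of 15 were higher in mesoderm than in epiblast, Tbx20 and Tbx3.

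Of 19 further lateral plate and splanchnic genes, 10 were higher in mesoderm than in epiblast and 1 was lower, and 8 were higher than in endoderm with none lower. Cdh11, an adhesion molecule of mesenchyme, read 1711 in mesoderm, 126 in endoderm and 454 in epiblast. Tcf21, a factor of epicardium and visceral mesoderm, read 815, 77.7 and 7.67 in the same order, and Ahnak and Rspo3 read 1319 and 1187 in mesoderm, 321 and 159 in endoderm, and 174 and 471 in epiblast. The one gene lower in mesoderm than in epiblast was Alcam, an adhesion molecule of early cardiomyocytes, at 131 in mesoderm, 59.2 in endoderm and 464 in epiblast.

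Most of the contractile and secreted genes of the cardiomyocyte were not separated. Of 26 named, 17 were above the floor in any layer, and 3 were at least 2-fold higher in mesoderm than in both others. Myl7, the atrial myosin light chain that is among the earliest contractile genes of the heart, read 2502 in mesoderm, 323 in endoderm and 262 in epiblast, 7.75-fold over endoderm and 9.54-fold over epiblast. Tnni1 (slow skeletal troponin I, the fetal cardiac form) read 225 in mesoderm, 56.7 in endoderm and 35.4 in epiblast, and Myl2 (ventricular myosin light chain) read 174, 59.3 and 53.4. Tnnc1 was brightest in endoderm, at 94.8 in mesoderm, 167 in endoderm and 44.4 in epiblast. Tnnt2, Tnni3, Actn2 and Ttn were below the floor in all layers, and Actc1 read 568 in mesoderm, 486 in endoderm and 390 in epiblast.

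**Figure D4:**
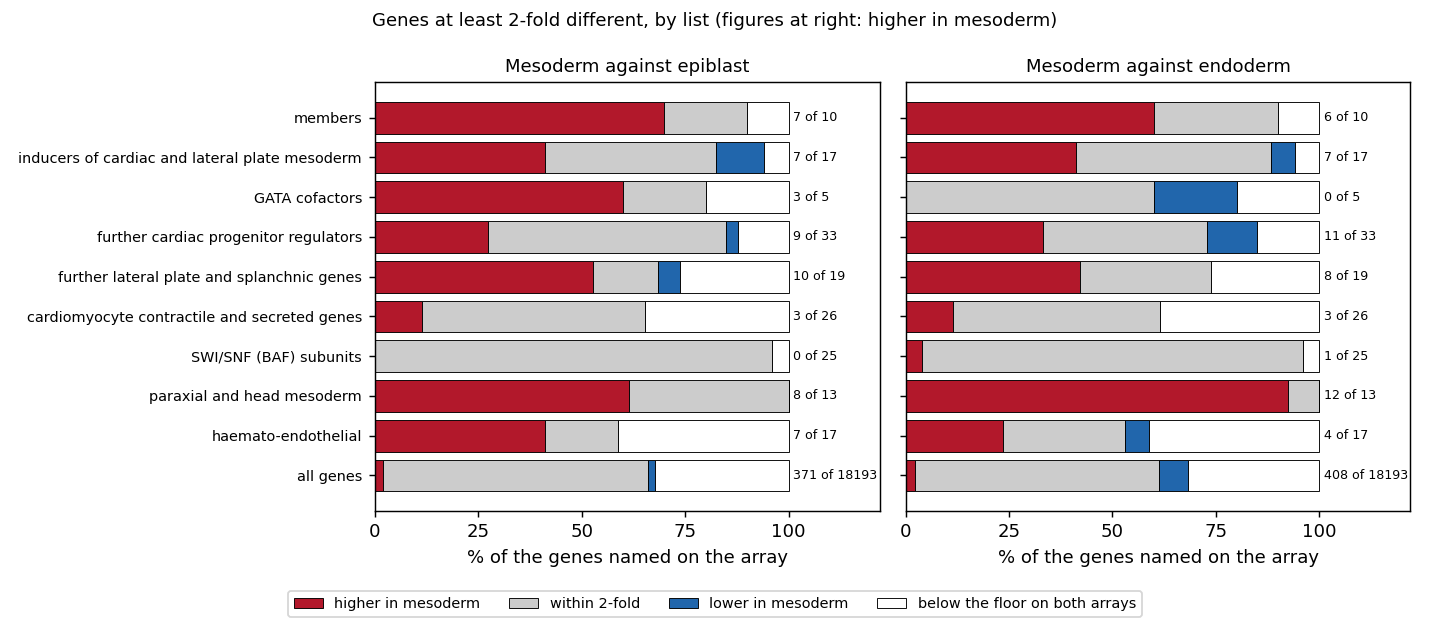
Share of the genes named on the array (horizontal axis, %) that were at least 2-fold higher in mesoderm (red), within 2-fold (grey), at least 2-fold lower (blue) or below the floor on both arrays (white), by list, for mesoderm against epiblast (left) and against endoderm (right). Of the members 7 of 10 and 6 of 10 were higher, of the contractile genes 3 of 26 in both, and of all 18193 genes 371 and 408.

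For each of the 6 genes above both layers, the genes with the most similar pair of differences were found among 12175 candidates, by Euclidean distance over the 2 log2 differences. Nearest to Smarcd3 were Snai2, Tcf21 and Myl7, of which Myl7 (0.36) was measured above the floor in all layers. Snai2 read 802 in mesoderm, 17.2 in endoderm and 52.2 in epiblast, so that its place rests on where the floor lies, as does that of Tcf21. Nearest to Hand2 were Foxc1, Alx1 and Pcsk5, and nearest to Tbx20 were Foxc1, Pcsk5 and Meis1. Foxf1 lay nearest to Mest, Phlda2 and Pcdh8, and Wnt2 to Hoxd1, Tcf15 and Pcsk5. Mef2c had 46 genes within 0.5 log2 units, the nearest being Gchfr, Htra1 and Nfil3. The distance rests on 3 arrays. Both differences of Hand2 and Wnt2, that of Tbx20 against epiblast and that of Mef2c against endoderm are lower bounds set by the floor, so the neighbours of these genes depend on it too.

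Markers of other tissues moved along the same comparisons. Paraxial and head mesoderm markers (13 genes) summed to 12389 in mesoderm, 2264 in endoderm and 4345 in epiblast, with 8 higher in mesoderm than in epiblast and 12 higher than in endoderm. Haemato-endothelial markers (17 genes) summed to 7108 in mesoderm, 3044 in endoderm and 2151 in epiblast. Only 10 of the 17 were above the floor in any layer. Against epiblast 7 were higher in mesoderm and none was lower, and against endoderm 4 were higher and 1 was lower. Cdh5, Pecam1, Tek, Tie1, Fli1, Hbb-bh1 and Klf1 were below the floor in every layer. Mef2c, Foxf1 and Isl1 are also known in vessels or their precursors. The part these cell kinds have in a member's signal was not tested. Allantois and extra-embryonic mesoderm markers (12 genes), which bear on Hand1, Foxf1 and Wnt2, summed to 8457 in mesoderm, 14213 in endoderm and 3142 in epiblast. Of these 12, 8 were above the floor in any layer, and Tbx4, Hoxa10, Hoxa13 and Postn were not. Against epiblast 6 were higher in mesoderm and none was lower. Against endoderm 3 were higher and 2 lower, the lower ones being Cited1 and Plac1, and Plac1 also stands in the trophoblast list. Visceral endoderm markers (12 genes) summed to 1188 in mesoderm, 70087 in endoderm and 1396 in epiblast, and 7 of them were above the floor in mesoderm, 12 in endoderm and 6 in epiblast. Definitive endoderm markers (11 genes), which bear on Isl1 and the GATA factors, summed to 9267 in mesoderm, 47609 in endoderm and 8884 in epiblast, with 4 higher and 5 lower in mesoderm than in epiblast and all 11 lower than in endoderm. Epiblast and neuroectoderm markers summed to 5680 in mesoderm, 8651 in endoderm and 23232 in epiblast. Trophoblast markers (10 genes) summed to 2595, 4305 and 3786 in the same order. Hand1 is itself in this list, at 323, 248 and 325, so the sum is not independent of Hand1. None of 11 housekeeping genes differed 2-fold in any pair, and the array medians were 79.9 in mesoderm, 79.9 in endoderm and 82.2 in epiblast.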

How the data were processed

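Total RNA of E7.5 ICR mouse mesoderm, endoderm and epiblast was hybridised to 1 Affymetrix mouse genome array per layer. The authors read the arrays with AGCC software and made expression values by RMA with the affy package. The deposited intensity values are linear, between 1 and 15688, although RMA gives log2 values, and the sources used here give neither the rescaling nor the number of embryos pooled. How far the summary compressed low values is therefore unknown. The deposited arrays also differed in distribution, with a 75th percentile of 276 in mesoderm, 319 in endoderm and 269 in epiblast. Calls that involve endoderm therefore depend on the scaling between arrays, as given below for quantile scaling.

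Of 45037 probe sets, 34945 had 1 gene symbol in the platform annotation, 932 had several and 9160 had none. Of those with 1 symbol, 34741 matched a RefSeq gene by Entrez number and no symbol changed. Probe sets with several symbols were not used. A gene was represented by its probe set of highest mean log2 value. Intensities under the floor, the median of all values (80.6), were set to it, and log2 differences between layers were taken. A pair was compared where its higher value was above the floor, and a difference of at least 1 log2 unit (2-fold) was called. SAM, named by the study, needs replicates, and no p-value was computed. The code was tested on simulated data.

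The members and the gene lists were chosen with earlier results of these data known. In each list the text names up to 4 genes with the widest range over the arrays, those called against the list's other calls, paralogs of members, and the 3 genes nearest to each member above both layers. Genes given beyond this rule (Actc1 and the contractile genes below the floor among them) were chosen after their values were seen, and Fendrr after those of the members. Promoter sequence was taken from RefSeq (GRCm38.p6), and gene starts were those of that build. Alternatives changed the floor, the fold, the choice of probe set, the pseudocount and the scaling between arrays (quantile, median, cyclic loess, housekeeping genes). Python 3.11.15, numpy 2.4.6, pandas 2.3.3, R 4.3.3 and limma 3.58.1 (for cyclic loess) were used.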

Additional observations from a re-analysis of the deposited data

How the results depend on the processing

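The members' counts, medians and dominance gave 142 values under alternative settings, of which 15 were marked as moved, and no called member changed direction. The other 127 are no measure of steadiness. They hold counts of 0 lower members that stayed at 0, and falls from 7 to 5 and from 6 to 4 members higher. Medians in this section are over the members above the floor in the pair, or over all 10 where no floor was applied. On that basis the reported values were 1.99 for mesoderm against epiblast and 2.35 for mesoderm against endoderm. The median for endoderm against epiblast, close to 0 (-0.03), lay between -0.32 and 0.22, the last with housekeeping centring. The number of members higher in mesoderm was between 5 and 8 against epiblast and between 4 and 7 against endoderm, with none lower in mesoderm under any setting. At the main setting 9 of the members' 22 probe sets were at least 2-fold above both layers, beside 244 of 21902 probe sets above the floor in any layer. With the floor at the 75th percentile (286), the medians were 1.39 against epiblast and 1.01 against endoderm. At that floor 4 member probe sets were above both layers, and Mef2c and Wnt2 lost both calls. With the mean over all probe sets of a gene, the medians were 1.51 and 1.36, Hand2 lost its calls (0.53 in both) and Hand1 gained one against endoderm (1.47). A limit of 1.5-fold put 14 probe sets above both layers. For endoderm against epiblast, the count of higher members was 2 with values as deposited (with or without the floor) and at 1.5-fold, and 0 at 3-fold, with the mean over probe sets, with quantile scaling and with cyclic loess. The count of lower members was 1 without a floor and 1 on the log2(value + 16) scale, that member being Wnt2. Taking the other Hand1 probe set, an alternative added after seeing the data, gave 8 and 7 members higher.

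Centring on housekeeping genes moved the median of all genes by 0.19 log2 for mesoderm minus epiblast, -0.25 for mesoderm minus endoderm and 0.45 for endoderm minus epiblast. The 11 genes' own differences had medians of 0.0072, 0.0095 and -0.0023, so the shift comes from setting the median of their levels equal, which falls on Tfrc in endoderm and on Hprt in mesoderm and epiblast. It changed the share of calls that were higher to 66.2% beside 54.2% as reported, 13.6% beside 23.9% and 93.2% beside 78.1%, in the same order of comparisons, with 2714 genes higher in endoderm than in epiblast beside 1447 and 198 lower beside 405. Quantile scaling gave 34.4% beside 23.9% for mesoderm against endoderm and 64.5% beside 78.1% for endoderm against epiblast. No paired analysis was possible because each layer has 1 array and the labels give no replicate numbers. Limits are the lack of replicates and signals near the floor, which leave Nkx2-5, Tbx5 and most probe sets of Hand2 without an order.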
